A study of Mus musculus with 6 samples.

Results

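The Rab genes are a family of small GTPases, and the 50 genes described here are the rows of the deposited unfiltered table whose symbol is Rab followed by digits and at most 1 lower-case letter. They were 50 of 13960 rows; effectors, interacting proteins and other names with further text, such as Rab7l1, were left out. RNA-seq was made from RiboTag precipitates of the spinal cord injury site of mice, 3 libraries at 3 days and 3 at 7 days after a contusion at T8. All 6 libraries came from chimeras that the labels write as LysMCre:Rplfl/fl > CD45.1, strain CD45.1, so the Cre, the floxed ribosomal allele and the injury were common to both times. LysM-Cre is active in macrophages and also in monocytes and neutrophils, so the tag marks myeloid cells in general; cells of the host carry no tag. No uninjured cord and no unprecipitated RNA was analysed here, and age, sex and whether animals were pooled are not given in the labels. Whether the libraries stem from separate animals is not in the labels, so a p-value here speaks only to variation among these libraries, part of which may be technical.

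A Rab protein is a switch on the surface of a membrane. An exchange factor loads it with GTP, in which form it recruits motors, tethers and coat proteins, and a GTPase activating protein turns it off again. Lipid anchors are added to its end by an escort protein and a transferase, and a dissociation inhibitor lifts the inactive form from the membrane. Each compartment carries its own set: Rab1, Rab2 and Rab6 act between the endoplasmic reticulum (ER) and the Golgi, Rab5 on early endosomes and phagosomes, Rab11 on recycling endosomes, Rab7 and Rab9 on late endosomes and lysosomes, and Rab3 and Rab27 on secretory vesicles. In macrophages, a phagosome that has taken up debris exchanges Rab5 for Rab7 as it matures and fuses with lysosomes.

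Of the 50 genes, 49 were tested. Rab30 was set aside because the mean of its 3 library values did not match the authors' deposited mean at either time: its libraries held 8.703, 15.2 and 4.003 FPKM at 3 days and 3.05, 11.2 and 10.4 FPKM at 7 days, beside deposited means of 42.4 and 14.5 FPKM. FPKM, the count of fragments scaled by transcript length and by the size of the library, is a level per length, so levels of different genes can be set side by side; the number of reads behind a value is not known from it. A gene was called higher or lower at 7 days when limma, fitted to log2(FPKM + 1) of all 13042 genes tested, gave an adjusted p of 0.05 or less. Fold changes are ratios of mean FPKM, and log2 changes are fitted differences of log2(FPKM + 1), which understate the change of genes with low values. In bulk RNA, fewer cells of a type and less RNA per cell cannot be told apart.

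The libraries held RNA with markers of several cell types. Of 7 tested macrophage markers, 5 were higher and 1 was lower at 7 days, and their summed level ranged from 1865 to 2399 FPKM at 3 days and from 3022 to 3453 FPKM at 7 days. Of 5 tested microglia markers, 4 were higher, with sums of 668 to 851 and 2081 to 2298 FPKM. Of 7 tested neutrophil markers, 2 were higher and 2 lower, with sums of 74.1 to 77.9 and 77.6 to 93.7 FPKM. Of 5 tested inflammatory monocyte markers, 4 were lower, with sums of 457 to 525 and 172 to 209 FPKM. All 9 neuron markers and all 7 tested oligodendrocyte markers were lower, as were 5 of 6 astrocyte markers and 5 of 6 endothelial markers. All 4 tested erythroid markers were lower, with sums of 164 to 213 and 15.9 to 22.4 FPKM, and so were 3 of 5 tested fibroblast and pericyte markers. The 1 tested marker of T and NK cells and the 1 of B cells were higher, with sums up to 1.84 and 3.48 FPKM. The summed neuron markers measured 170, 394 and 182 FPKM in the 3-day libraries and 69.2, 55.5 and 60.8 FPKM in the 7-day libraries, and no tested marker of any of these lists was at 0 in a library. Neuron, oligodendrocyte, astrocyte, endothelial, and fibroblast and pericyte sums were each highest in 3-day replicate 2. Rpl22, whose protein carries the tag, was not called (adjusted p = 0.739).

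At 7 days, 16 of the 49 tested Rab genes were higher and 9 were lower than at 3 days, and 24 were not called. That is 32.7% higher and 18.4% lower, while among all genes tested 18.8% were called higher, 20.3% lower and 39.1% in either direction. The median log2 change of the 49 genes was 0.10, beside -0.04 for all genes tested. The genes that rose did so by 1.26-fold to 2.96-fold (median 1.60-fold), and 2 of them, Rab9 and Rab19, by 2-fold or more. The genes that fell did so by 1.43-fold to 4.21-fold (median 3.00-fold), and 7 of the 9 by 2-fold or more. The counts fell to 10 and 6 without 3-day replicate 3, to 10 and 5 without 7-day replicate 2, and to 10 and 4 without 7-day replicate 3. With quantile normalization 16 were higher and 5 lower, and among genes with a mean of 5 FPKM or more 17 were higher and 4 lower. That filter removes Rab15, Rab23, Rab39b, Rab3c and Rab9b, all called lower, before the test. The share of all genes called under these alternatives is not given, so the drops are not known to be particular to Rab genes.

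**Figure D1:**
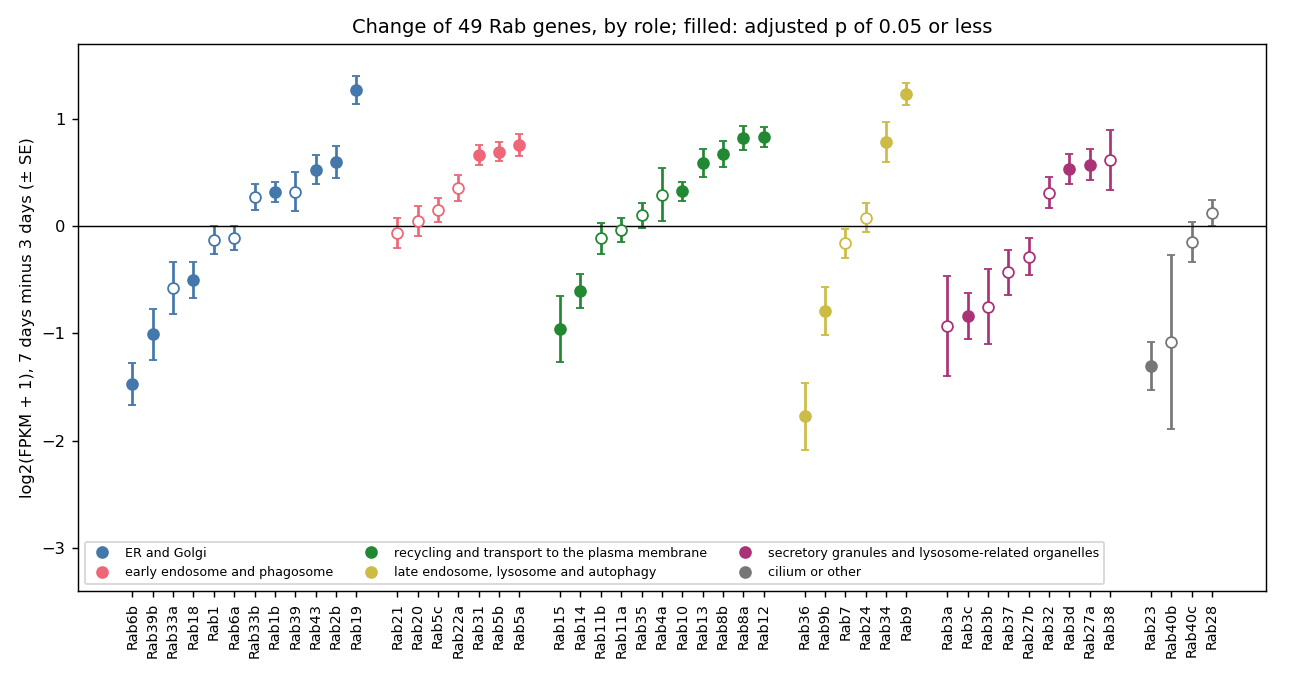
Fitted change from 3 to 7 days on the log2(FPKM + 1) scale (y axis, ± SE) of the 49 tested Rab genes (x axis), grouped and coloured by role, with filled points for an adjusted p of 0.05 or less. Filled points lie above 0 for 16 genes, with Rab19 and Rab9 highest, and below 0 for 9 genes, with Rab36 lowest.

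The direction of change differed with the level of the gene, as it did for genes in general. Of the 24 Rab genes with a mean of 10 FPKM or more over the 6 libraries, 9 were higher and 2 were lower. Among all genes at that level 31.6% were higher, 12.4% lower and 44% either, so the share of higher Rab genes, 37.5%, was close to that of other genes. Of the 25 Rab genes under 10 FPKM, 7 were higher and 7 lower, 28% each way, beside 7.84% higher, 27% lower and 34.9% either among all genes under 10 FPKM. The falling Rab genes above 10 FPKM were Rab14 and Rab18. For 32 of the 49 genes the libraries of the 2 times did not overlap, 19 with the 7-day libraries above and 13 with them below. Of all genes tested, 55.4% did not overlap, 26.8% with the 7-day libraries above and 28.6% with them below.

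**Figure D2:**
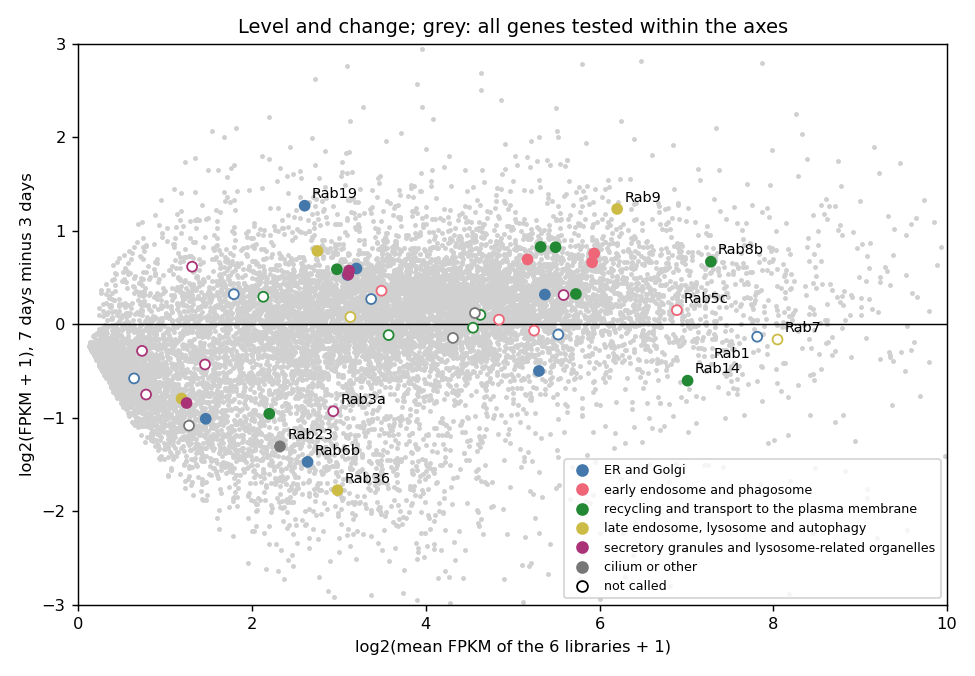
Mean level over the 6 libraries (x axis, log2 of FPKM + 1) against the change from 3 to 7 days (y axis, log2(FPKM + 1) difference) for Rab genes, coloured by role, and for all genes tested that lie within the axes (grey). Genes with the largest changes lie outside the axes. Rab1 and Rab7 lie at the right near 0, Rab9 and Rab8b above 0, and the lowest Rab points are genes of low level such as Rab36 and Rab6b.

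The level of the family was concentrated in a few members. Summed over the 50 genes, Rab transcripts measured 1685, 1523 and 1678 FPKM at 3 days and 1747, 1894 and 1747 FPKM at 7 days. All 7-day sums lay above all 3-day sums, and the exact two-sided permutation test gave p = 0.1, the smallest that 3 against 3 libraries allow. As a share of the summed FPKM of all genes tested, the tested Rab genes held 0.405% to 0.504% at 3 days and 0.432% to 0.464% at 7 days, and these ranges overlapped. The 5 most abundant members over the 6 libraries were Rab7, Rab1, Rab8b, Rab14 and Rab5c. They held 57.0%, 51.6% and 56.7% of the summed Rab level at 3 days and 49.05%, 49.04% and 48.4% at 7 days. Of the 50 genes, 22 were at 10 FPKM or more in all libraries and 40 at 1 FPKM or more.

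The first of these abundant genes, Rab7, the GTPase of late endosomes and lysosomes, measured 302, 231 and 305 FPKM at 3 days and 245, 261 and 238 FPKM at 7 days. It had the highest mean of the family at both times. Its log2 change of -0.16 ± 0.14 (SE) was not called (adjusted p = 0.363), and its libraries overlapped between the times (chromosome 6, 87998684 to 88045246, minus strand, mm10). Rab1, the GTPase of ER-to-Golgi transport whose current symbol is Rab1a, measured 257, 206 and 241 FPKM at 3 days and 189.8, 231 and 221 FPKM at 7 days. It ranked below Rab7 alone at both times, overlapped between the times and was not called (log2 change -0.13 ± 0.13, adjusted p = 0.431). Rab5c, one of the early endosome GTPases, measured 100.1, 111 and 124 FPKM at 3 days and 116, 131 and 124 FPKM at 7 days. Its 7-day values lay partly above those of 3 days, with overlap, and it was not called (log2 change 0.15 ± 0.11, adjusted p = 0.293); with quantile normalization the sign of its change turned. A p above the threshold does not show that these levels were equal.

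Among the GTPases of early endosomes and phagosomes, 3 of 7 tested genes were higher (42.9%) and 0 were lower, with a median log2 change of 0.36. All 7 had a mean of 10 FPKM or more, and 31.6% of all genes at that level were higher and 12.4% lower, with a median of 0.20. Rab5a, which drives fusion of early endosomes and early phagosomes, measured 40.9, 46.8 and 45.9 FPKM at 3 days and 79.5, 78.98 and 69.7 FPKM at 7 days. All 3 libraries at 7 days lay well above those at 3 days, a 1.71-fold rise (log2 change 0.76 ± 0.10, SE; adjusted p = 0.00176; chromosome 17, 53479240 to 53507557, plus strand). One of its exons overlaps Pp2d1 on the opposite strand, so its value is uncertain. Its close relative Rab5b measured 26.7, 25.9 and 26.8 FPKM at 3 days and 42.6, 42.02 and 46.03 FPKM at 7 days, without overlap. It rose 1.64-fold (log2 change 0.70 ± 0.09, adjusted p = 0.00145; chromosome 10, 128676716 to 128696297, minus strand). Rab31, which acts between the trans-Golgi and endosomes, measured 49.6, 43.3 and 44.2 FPKM at 3 days and 71.3, 76.9 and 70.6 FPKM at 7 days. It rose 1.596-fold, again without overlap (log2 change 0.66 ± 0.09, adjusted p = 0.00234; chromosome 17, 65651193 to 65772986, minus strand). These calls of Rab5a, Rab5b and Rab31 held under all 16 alternatives tried.

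The other early endosomal genes were not called. Rab22a, a relative of Rab31 in endosomal sorting, had mean levels (SD, n = 3) of 8.86 ± 1.05 FPKM at 3 days and 11.6 ± 0.286 FPKM at 7 days, without overlap, and an adjusted p of 0.0507. It was called under 7 of the 16 alternatives, among them pseudocounts of 0.1 FPKM (adjusted p = 0.0485) and 0.5 FPKM (0.0496) and the fit without 3-day replicate 1 (0.0335). Under the others the adjusted p was up to 0.131. Rab21, which takes part in integrin traffic, had means of 37.9 ± 6.18 FPKM at 3 days and 35.996 ± 3.94 FPKM at 7 days. Rab20, a GTPase of maturing phagosomes, had means of 27.2 ± 4.26 FPKM at 3 days and 28.1 ± 2.61 FPKM at 7 days. The values of Rab20 and Rab21 overlapped between the times, and the sign of their small changes turned under some alternatives.

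The promoters of these genes were examined for the letters of the E-box, CACGTG, the core of the element through which the lysosomal regulator TFEB and its relatives are known to act; in the full element, GT stands before the core and AC after it. The 250 bases before each RefSeq start (GRCm38.p6, the same assembly as mm10) were searched on both strands; both forms read the same on the 2 strands, and each match to the full element is also a match to its core. RefSeq windows were found for 43 of the 50 Rab genes. CACGTG was present for 5 of the 43 genes (11.6%), beside 6.86% of all genes in the table. The full element was present for 2 of them, Rab5a, which rose, and Rab21, which was not called, beside 0.27% of all genes. Rab9, whose rise is described below, held neither. The 3 windows are shown because they set a rising gene with the letters beside an uncalled gene with them and a rising gene without them. They read 5′ to 3′ on the strand of the gene, with CACGTG in capitals:
Rab5a (chr17:53478984-53479233, plus strand): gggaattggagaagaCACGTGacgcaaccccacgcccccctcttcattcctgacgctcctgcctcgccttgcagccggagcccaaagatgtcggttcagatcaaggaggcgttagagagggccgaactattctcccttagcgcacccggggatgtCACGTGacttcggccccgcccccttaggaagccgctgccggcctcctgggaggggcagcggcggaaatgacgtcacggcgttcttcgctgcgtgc
Rab21 (chr10:115315592-115315841, minus strand): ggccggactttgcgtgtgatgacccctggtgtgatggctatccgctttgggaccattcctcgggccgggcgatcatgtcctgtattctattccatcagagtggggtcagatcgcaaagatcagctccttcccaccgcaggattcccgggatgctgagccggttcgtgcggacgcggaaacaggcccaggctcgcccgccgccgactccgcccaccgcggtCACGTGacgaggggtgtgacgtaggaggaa
Rab9 (chrX:166479868-166480117, minus strand): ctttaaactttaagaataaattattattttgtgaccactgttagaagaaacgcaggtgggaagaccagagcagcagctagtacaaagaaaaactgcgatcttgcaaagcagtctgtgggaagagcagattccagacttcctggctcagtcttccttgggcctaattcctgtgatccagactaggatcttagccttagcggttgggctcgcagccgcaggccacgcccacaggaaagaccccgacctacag
The Rab5a window holds CACGTG at 2 places, the first of them 235 bases before the start, and the Rab21 window holds it once, 30 bases before the start. In the Rab5a window only the second place, nearer the start, is the full element. The other Rab genes with CACGTG were Rab20, not called, Rab23, which fell, and Rab27a, which rose. A match is a description of the letters and not evidence of binding.

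Late endosomal, lysosomal and autophagic Rab genes went both ways, with 2 of 6 tested genes higher and 2 lower (33.3% each), beside 18.8% and 20.3% of all genes tested. Rab9, which returns mannose 6-phosphate receptors from late endosomes to the trans-Golgi, measured 38.8, 45.03 and 44.97 FPKM at 3 days and 94.4, 109.9 and 103 FPKM at 7 days. The lowest library at 7 days was more than double the highest at 3 days. Its rise of 2.38-fold had the lowest adjusted p of the family (log2 change 1.23 ± 0.10, SE; adjusted p = 4.60e-04; chromosome X, 166457258 to 166479699, minus strand) and held under all 16 alternatives. It moved from rank 11 of the 50 genes at 3 days to rank 5 at 7 days. Rab34, a Golgi GTPase known for lysosome positioning and macropinosomes, rose from 3.94 ± 0.754 to 7.53 ± 1.45 FPKM (SD, n = 3; adjusted p = 0.0154). Its call ended without 3-day replicate 3, 7-day replicate 2 or 7-day replicate 3 (adjusted p up to 0.059999).

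In the other direction, Rab36, a relative of Rab34, measured 11.9, 13.8 and 7.796 FPKM at 3 days and 1.34, 2.499 and 4.12 FPKM at 7 days. Its 7-day libraries were all below those at 3 days and differed 3-fold among themselves, and the fall of 4.21-fold (log2 change -1.77 ± 0.31, adjusted p = 0.00512; chromosome 10, 75041791 to 75052797, plus strand) was the widest fold among the called genes. The authors' deposited table gives Rab36 a q-value of 0.3097. Rab9b, a relative of Rab9, measured 1.66, 2.74 and 1.32 FPKM at 3 days and 0.903, 0.584 and 0.468 FPKM at 7 days. It was low at both times and fell 2.92-fold (log2 change -0.79 ± 0.23, adjusted p = 0.0292); the call ended without 7-day replicate 2 or 7-day replicate 3 (adjusted p up to 0.0904), and with quantile normalization (adjusted p = 0.429), where the log2 change was -0.23. Rab24, linked to autophagy, was not called, with means of 7.4999 ± 0.3001 FPKM at 3 days and 8.03 ± 1.12 FPKM at 7 days. Its deposited locus spans 115392 bases where the annotated gene spans 2204, and an exon of it overlaps Prelid1, so its value is uncertain.

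Rab genes of recycling and of transport to the plasma membrane included 11 tested members, of which 5 were higher (45.5%) and 2 lower (18.2%), beside 18.8% and 20.3% of all genes tested, or 31.6% and 12.4% of those at 10 FPKM or more. Rab8b, a GTPase of exocytosis and the most abundant gene of the family that rose, measured 133, 102 and 124 FPKM at 3 days and 189, 198 and 181 FPKM at 7 days. There was no overlap, and the rise was 1.59-fold (log2 change 0.67 ± 0.12, SE; adjusted p = 0.005496; chromosome 9, 66842969 to 66919688, minus strand). Rab8a, which acts in exocytosis, membrane ruffles and cilia, measured 29.4, 30.4 and 34.6 FPKM at 3 days and 50.4, 57.6 and 61.8 FPKM at 7 days. It rose 1.799-fold without overlap (log2 change 0.83 ± 0.11, adjusted p = 0.00202; chromosome 8, 72161281 to 72183894, plus strand). Rab12, which takes part in sending the transferrin receptor to lysosomes, measured 26.8, 26.4 and 30.3 FPKM at 3 days and 50.2, 49.6 and 50.6 FPKM at 7 days. The 3 libraries at 7 days lay within 1.02 FPKM of each other, and the rise was 1.801-fold (log2 change 0.83 ± 0.09, adjusted p = 0.00103; chromosome 17, 66494305 to 66519574, minus strand). Rab13, known from tight junctions, rose from 5.28 ± 0.265 to 8.46 ± 0.737 FPKM (adjusted p = 0.0104). The calls of Rab8a, Rab8b, Rab12 and Rab13 held under all 16 alternatives.

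Rab10, which carries Glut4 vesicles in fat cells and Toll-like receptor 4 in macrophages, measured 47.1, 43.8 and 47.2 FPKM at 3 days and 59.6, 60.04 and 54.2 FPKM at 7 days. It rose by less, 1.26-fold without overlap (log2 change 0.33 ± 0.09, adjusted p = 0.02596; chromosome 12, 3244543 to 3309946, minus strand). Its call ended without 3-day replicate 3, 7-day replicate 1 or 7-day replicate 2 (adjusted p up to 0.0891), with a constant prior variance (0.055) and with quantile normalization (0.462), where the log2 change was 0.08. The authors' deposited table gives it a q-value of 0.0511.

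Rab14, which acts between the Golgi and endosomes and on phagosomes, was the abundant member that fell. It measured 169, 136 and 157 FPKM at 3 days and 117, 108 and 81.3 FPKM at 7 days, without overlap and with 7-day replicate 3 lowest. The fall was 1.51-fold (log2 change -0.60 ± 0.16, adjusted p = 0.0212; chromosome 2, 35155266 to 35201025, minus strand), and in rank it went from 3 to 6. The deposited locus of Rab14 spans 45759 bases where the annotated gene spans 20916, so its value is uncertain. The call ended without 3-day replicate 1, 3-day replicate 3 or 7-day replicate 3 (adjusted p up to 0.0635) and with centring on the median gene (adjusted p = 0.0542). Rab15, an endosomal GTPase with known expression in neural tissue, fell from 4.96 ± 0.981 to 2.21 ± 1.17 FPKM; its call ended when any single library but 7-day replicate 1 was left out (adjusted p up to 0.129), with a pseudocount of 0.1 FPKM (0.0531), with quantile normalization (0.126) and with the replicate number as a block (0.0609). The recycling GTPases Rab11a, Rab11b, Rab35 and Rab4a were not called. Rab11a had means of 22.6 ± 2.25 FPKM at 3 days and 21.995 ± 1.13 FPKM at 7 days, and Rab35 of 22.9 ± 3.001 FPKM at 3 days and 24.5 ± 0.828 FPKM at 7 days. Rab11b and Rab4a overlapped between the times as well, with log2 changes of -0.11 ± 0.14 and 0.30 ± 0.25; the sign for Rab11a, Rab11b and Rab35 turned under some alternatives.

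Of 12 tested Rab genes of the ER and Golgi, 4 were higher (33.3%) and 3 were lower (25%), beside 18.8% and 20.3% of all genes tested. Rab19, a Golgi GTPase, rose from 2.57 ± 0.111 to 7.601 ± 0.333 FPKM (SD, n = 3), a 2.96-fold rise and the widest of the family (log2 change 1.27 ± 0.13, adjusted p = 7.42e-04; chromosome 6, 39379962 to 39390460, plus strand); the call held under all 16 alternatives. Rab1b, which like Rab1 serves ER-to-Golgi transport, measured 33.3, 37.04 and 37.1 FPKM at 3 days and 43.4, 48.5 and 42.9 FPKM at 7 days. The rise of 1.26-fold was without overlap (log2 change 0.32 ± 0.10, adjusted p = 0.0362). This call ended in each leave-out other than that of 3-day replicate 2 (largest adjusted p 0.1204), with a constant prior variance (0.0679) and with quantile normalization (0.374), where the log2 change was 0.12; the authors' q-value in the authors' deposited table was 0.0625. Rab2b, a GTPase of ER-to-Golgi traffic, measured 5.52, 7.701 and 5.82 FPKM at 3 days and 9.404, 9.75 and 10.99 FPKM at 7 days. It rose 1.58-fold (adjusted p = 0.0192), with an exon that overlaps the opposite-strand gene Tox4, so its value is uncertain; without 3-day replicate 3, 7-day replicate 2 or 7-day replicate 3 the adjusted p was up to 0.0692. Rab43, which acts at the Golgi, rose from 6.03 ± 0.766 to 9.101 ± 0.318 FPKM (adjusted p = 0.0185), and lost its call without any single 7-day library (adjusted p up to 0.0629); one of its exons overlaps Gm45140 on the same strand, so its value is uncertain.

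Rab18, known for its place on lipid droplets and the ER, measured 55.05, 37.3 and 43.5 FPKM at 3 days and 32.7, 35.6 and 26.5 FPKM at 7 days. Its 7-day libraries were all lower, with 3-day replicate 1 and 7-day replicate 3 at the extremes. The fall of 1.43-fold was just inside the threshold (log2 change -0.50 ± 0.17, adjusted p = 0.0498), and the call ended in each leave-out other than that of 3-day replicate 2 (largest adjusted p 0.151). It also ended with centring on the median gene (adjusted p = 0.128), with a constant prior variance (0.0714) and with all rows tested (0.0509). Rab6a, the widely expressed Golgi Rab6, had means of 46.8 ± 5.305 FPKM at 3 days and 43.2 ± 2.27 FPKM at 7 days with overlap and was not called (adjusted p = 0.443). One of its exons overlaps Mrpl48 on the opposite strand, so its value is uncertain. Rab33b, which binds an autophagy complex, had means of 8.36 ± 0.168 FPKM at 3 days and 10.3 ± 1.02 FPKM at 7 days and was not called (adjusted p = 0.109). Rab39 was low and not called (log2 change 0.32 ± 0.18), except under 1 of the 14 alternatives in which it was tested (adjusted p = 0.0227). Rab2a, the relative of Rab2b, has a row in the authors' filtered table alone and is no member by the rule used; there it measured 70.9, 76.2 and 64.3 FPKM at 3 days and 99.1, 110.2 and 86.7 FPKM at 7 days, without overlap (log2 change 0.48 ± 0.12, adjusted p = 0.0168 over the 9585 genes of that table).

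Most Rab genes that fell had low levels, 7 of the 9 with a mean under 10 FPKM. So did most of all genes called lower, 1899 of 2645. Several of the 7 Rab genes are best known from neurons. Rab6b, the Rab6 of neurons, fell from 8.201 ± 2.31 to 2.26 ± 0.184 FPKM, with 3-day replicate 2 highest at 10.8 FPKM (log2 change -1.47 ± 0.20, SE; adjusted p = 0.00184). Rab39b, a neuronal Golgi GTPase, fell from 2.699 ± 0.909 to 0.827 ± 0.366 FPKM (adjusted p = 0.0154; 0.0521 without 7-day replicate 3). Quantile normalization ended its call as well (adjusted p = 0.133) and took its log2 change from -1.01 to -0.49. Rab23, a regulator of hedgehog signalling, fell from 6.17 ± 2.203 to 1.83 ± 0.268 FPKM, again with 3-day replicate 2 highest at 8.71 FPKM (adjusted p = 0.00486). The calls of Rab6b and Rab23 held under all alternatives in which they were tested. Rab33a, a Golgi relative of Rab33b known from neurons and immune cells, was under 1 FPKM in 5 libraries and was not called (adjusted p = 0.0958; 0.0445 without 3-day replicate 1).

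For 13 of the 49 tested genes all 7-day libraries lay below all 3-day libraries, as for 28.6% of all genes tested. Of these 13, 11 were highest in 3-day replicate 2. How many of all genes lower without overlap were highest in that library was not computed. Rab14 and Rab18 were the exceptions. In the same libraries 9 of 9 neuron markers were lower at 7 days, with a summed level of 170 to 394 FPKM at 3 days and 55.5 to 69.2 FPKM at 7 days, and 3-day replicate 2 was highest. The oligodendrocyte, astrocyte, endothelial, and fibroblast and pericyte sums were highest in that library too. The part of such RNA in the falls of these 11 Rab genes was not tested. Without 3-day replicate 2, 8 Rab genes in place of 9 were called lower, and 15 in place of 16 higher. The share of all genes called in that fit is not given.

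**Figure D3:**
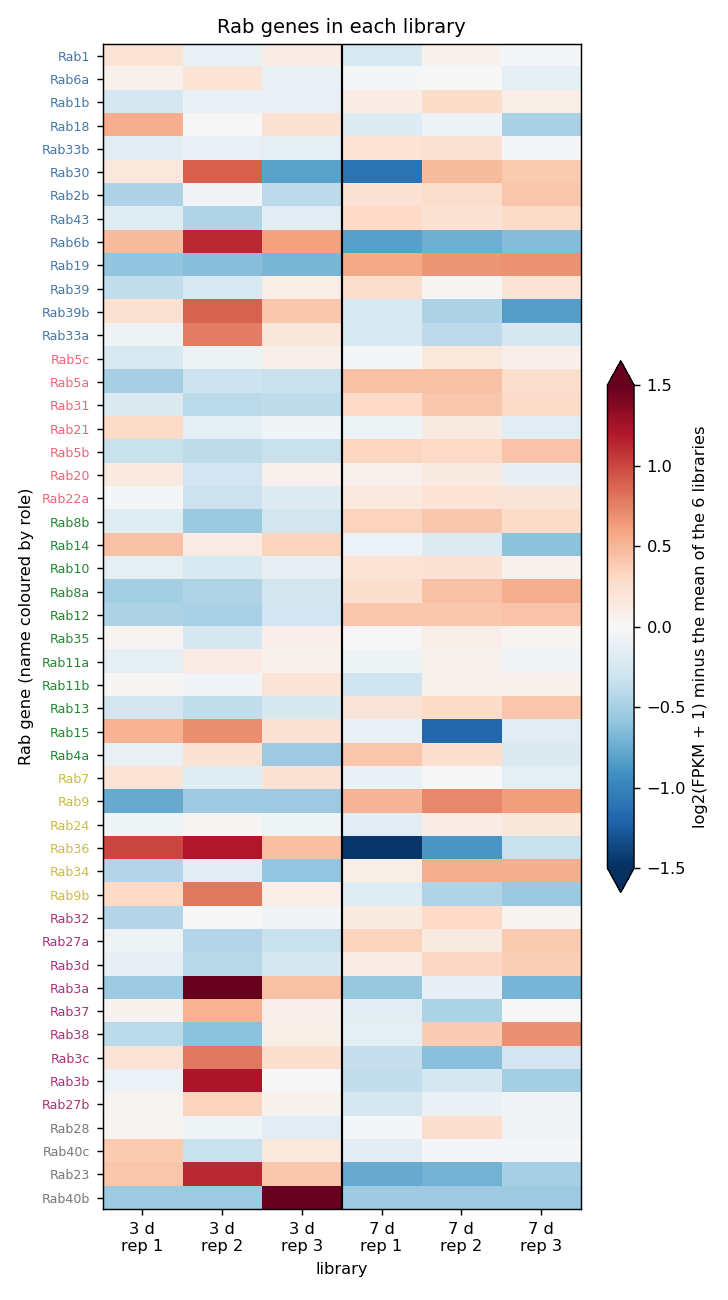
Each of the 50 Rab genes (rows, names coloured by role as in the plot of changes) in each of the 6 libraries (columns), as log2(FPKM + 1) minus the mean of the gene over the 6 libraries. Rab9, Rab19, Rab12, Rab8a and Rab5a are above their mean in all 7-day libraries, and Rab6b, Rab23, Rab36 and Rab3c are below it there, with Rab3a, Rab3b and Rab23 highest in 3-day replicate 2.

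Of the 9 Rab genes of secretory granules and lysosome-related organelles, 2 were higher (22.2%) and 1 was lower (11.1%), beside 18.8% and 20.3% of all genes tested. All of them but Rab32 had a mean under 10 FPKM. Among all genes under 10 FPKM, 7.84% were higher and 27% lower. The 9 genes included the synaptic vesicle GTPases. Rab27a, which docks lytic granules and exosome-bearing endosomes, rose from 5.98 ± 0.929 to 9.37 ± 0.932 FPKM (SD, n = 3; adjusted p = 0.0202). Rab3d, the Rab3 of exocrine and mast cell granules, measured 6.75, 5.32 and 6.08 FPKM at 3 days and 8.16, 9.496 and 9.91 FPKM at 7 days. It rose 1.52-fold without overlap (log2 change 0.53 ± 0.14, adjusted p = 0.0215). The call of Rab27a ended without any one of 3-day replicates 2 and 3 and 7-day replicates 1 and 3 (adjusted p up to 0.0713), and that of Rab3d without any one of 3-day replicate 3 and 7-day replicates 2 and 3 (adjusted p up to 0.0747).

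The Rab3 genes of synaptic vesicles pointed the other way. Rab3c measured 1.59, 2.897 and 1.68 FPKM at 3 days and 0.762, 0.456 and 0.839 FPKM at 7 days. It fell 3.002-fold (log2 change -0.84 ± 0.22, adjusted p = 0.0202), and lost its call without 7-day replicate 1 or 7-day replicate 2 (adjusted p up to 0.0736) and with quantile normalization (adjusted p = 0.279), where the log2 change was -0.28. Rab3a, whose value is uncertain because an exon overlaps Mpv17l2, measured 3.45, 17.3 and 7.799 FPKM at 3 days and 3.36, 4.96 and 2.99 FPKM at 7 days. A single library, 3-day replicate 2, was far above the other 5, and the gene was not called (adjusted p = 0.149); without 3-day replicate 1 the adjusted p was 0.0238. Rab3b was low at both times and not called, with means of 1.23 ± 1.24 FPKM at 3 days and 0.208 ± 0.107 FPKM at 7 days. The authors' deposited table gives q-values of 0.00562 for Rab3a and 0.004697 for Rab3b. Rab32, known from melanosomes and from phagosomes of macrophages, had means of 41.98 ± 6.99 FPKM at 3 days and 52.1 ± 4.87 FPKM at 7 days without overlap and was not called (adjusted p = 0.117; 0.0471 with centring on the median gene). Its relative Rab38, with Rab27b and Rab37, was at or below 2.86 FPKM in all libraries and not called. Rab38 was called under 1 of the 14 alternatives in which it was tested (adjusted p = 0.0179).

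Of the remaining 4 tested genes, linked to cilia or other roles, 1 was lower (25%), Rab23, and 0 were higher, beside 20.3% and 18.8% of all genes tested. Rab28, linked to cilia, had means of 21.6 ± 1.53 FPKM at 3 days and 23.7 ± 2.96 FPKM at 7 days with overlap and was not called. Rab40c, which carries a SOCS box, had means of 20.1 ± 5.17 FPKM at 3 days and 17.7 ± 1.09 FPKM at 7 days and was not called either; the sign of its change turned without 3-day replicate 1. Rab40b, its relative, is listed at 8.51 FPKM in 3-day replicate 3 and at 0 in the other 5 libraries. Its deposited locus covers 816 bases of a gene annotated over 32127 bases, so this value does not stand for the whole gene, and no fold change is given.

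The shares of the role groups within the summed Rab level were compared library by library. Genes of the ER and Golgi held 25.8%, 25.6% and 24.0% of the summed Rab level at 3 days and 20.4%, 21.8% and 22.0% at 7 days. Their share was lower by 3.70 percentage points in the mean, without overlap. This does not mean that the genes of the group fell as a whole. Of its 12 tested genes, 4 were called higher and 3 lower, and Rab1, its most abundant gene, was not called. The share also counts Rab30, which was set aside from the tests. Early endosome and phagosome genes held 17.97%, 19.1% and 18.7% at 3 days and 22.01%, 21.7% and 21.8% at 7 days, a mean difference of 3.25 percentage points without overlap. Recycling and plasma membrane genes held 27.6 ± 0.685% at 3 days and 29.4 ± 1.09% at 7 days (SD, n = 3), also without overlap. The 4 genes linked to cilia or other roles held 3.11 ± 0.151% and 2.402 ± 0.0908%, without overlap too. Their share counts Rab40b, listed at 8.51 FPKM in 3-day replicate 3 and at 0 in all other libraries, a value that does not stand for the whole gene. For each of these 4 groups the exact two-sided permutation test gave p = 0.1, the smallest it allows with 3 against 3 libraries, so none can pass 0.05. Late endosomal genes held 21.3 ± 1.05% and 20.6 ± 0.260%, with an exact permutation p of 0.4, and secretory genes 4.38 ± 1.11% and 4.404 ± 0.0542%, with an exact permutation p of 1. The scaling between libraries does not enter a share, but a lower level of an abundant gene raises the shares of all other groups, and a higher level in other groups lowers a share.

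**Figure D4:**
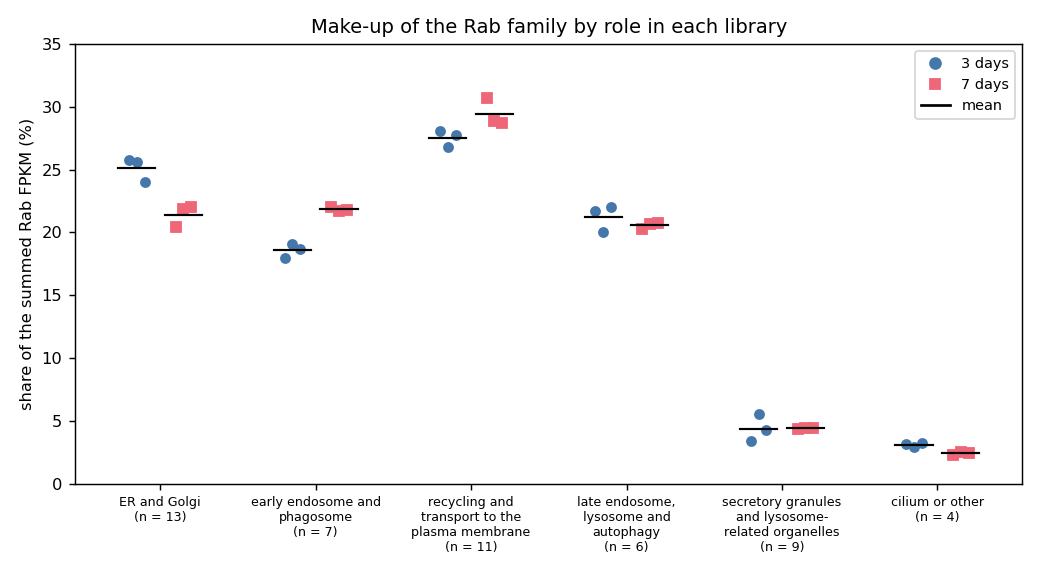
Share of the summed FPKM of the 50 Rab genes held by each role group (y axis, %) in each library, with 3-day libraries as circles, 7-day libraries as squares and the mean as a bar. The share of the ER and Golgi group is lower in all 7-day libraries and that of the early endosome and phagosome group is higher in all of them, while the late endosomal and secretory shares overlap.

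Rab genes that share a number are close relatives, and their levels were set against each other within each library. There were 18 pairs in 11 numbers, and each was compared as the difference of log2(FPKM + 1) within a library. For 11 of the 18 pairs the 3-day and 7-day differences did not overlap. The share for pairs of genes in general was not computed; of single genes, 55.4% did not overlap. The exact two-sided permutation test gave p = 0.1 for each of these 11, the smallest possible, and 0.164 after Benjamini-Hochberg adjustment over the 18 pairs. Where 1 gene was higher and the other lower, each without overlap, the outcome of the pair was fixed by the single genes. This holds for Rab9 and Rab9b, Rab3c and Rab3d, Rab3b and Rab3d, Rab27a and Rab27b, and Rab33a and Rab33b. Several pairs also share a gene, so the count of pairs adds no separate support. Rab9 over Rab9b went from 3.94 ± 0.35 to 5.97 ± 0.28 (SD, n = 3). This was the widest shift, a log2 difference of 2.03, and both genes of the pair were called, in opposite directions. Rab6a over Rab6b shifted by 1.36 on the log2 scale, and Rab3c over Rab3d, the other pair called in opposite directions, by -1.37.

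Within the Rab5 set, the difference of Rab5a to Rab5c was larger at 7 days by 0.61 and that of Rab5b to Rab5c by 0.54 on the log2 scale, both without overlap. Rab5a against Rab5b shifted by 0.06 with overlap (exact permutation p = 0.6). Rab5c was nevertheless the most abundant of the 3 at both times. Rab8a against Rab8b, which both rose, shifted by 0.16 with overlap (exact permutation p = 0.5), and Rab11a against Rab11b by 0.08 (exact permutation p = 0.5).

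**Figure D5:**
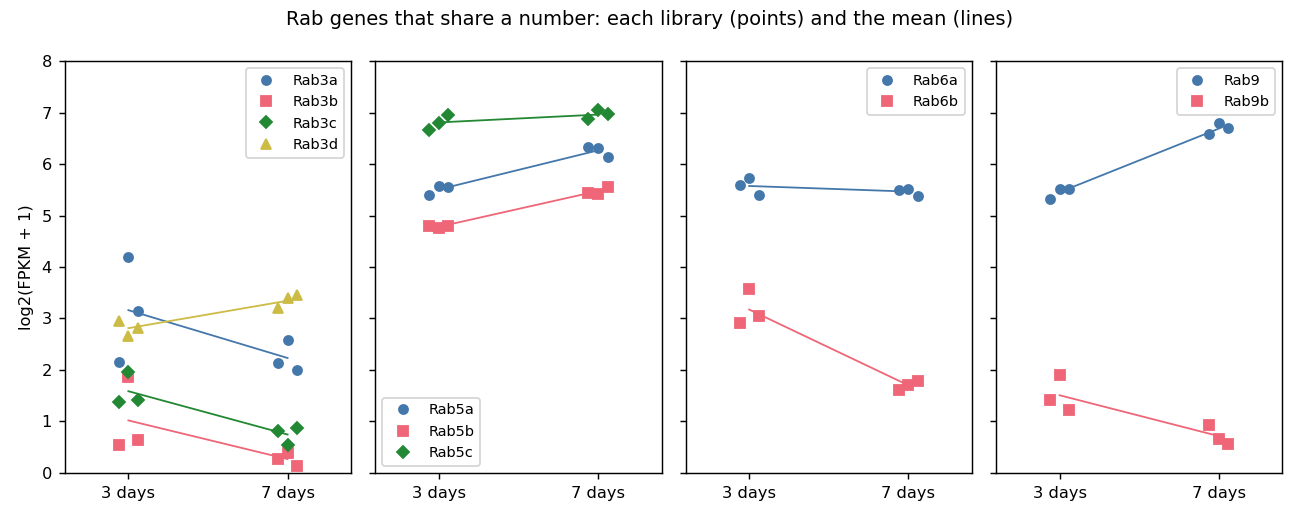
Levels (y axis, log2 of FPKM + 1) of the Rab3, Rab5, Rab6 and Rab9 genes at 3 and 7 days, with 1 point per library and lines between the means. Rab9 rises while Rab9b falls, Rab3d rises while Rab3c falls, Rab6a overlaps between the times while Rab6b falls, and Rab5a and Rab5b approach Rab5c.

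The proteins that load, switch and read Rab GTPases were described from 9 lists of 143 symbols, of which 120 were tested. Of these, 31 were higher (25.8%) and 17 were lower (14.2%) at 7 days, beside 18.8% and 20.3% of all genes tested. Their median log2 change was 0.19. Among all genes at 10 FPKM or more 31.6% were higher and 12.4% lower with a median of 0.20, so the regulators lay between these backgrounds in both shares. The counts were 13 higher and 15 lower when 7-day replicate 1 was left out, 19 and 10 for 7-day replicate 2, 20 and 12 for 7-day replicate 3, and 30 and 6 in the filtered table. The share of all genes called in those fits is not given, so these shifts are not known to be particular to the regulators. Of 8 genes that escort, anchor and recycle Rab proteins, 2 were higher (25%) and 0 were lower, beside 18.8% and 20.3% of all genes tested. Chm, the Rab escort protein, rose from 15.7 ± 1.61 to 21.8 ± 1.88 FPKM, and Rabif rose from 9.42 ± 0.745 to 12.6 ± 0.408 FPKM. Leaving out 1 library ended both calls (adjusted p up to 0.0751 and 0.0916). Gdi2, a dissociation inhibitor, was not called, with means of 363 ± 19.2 FPKM at 3 days and 421 ± 24.1 FPKM at 7 days.

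Exchange factors, which switch Rab proteins on, were higher in 7 (21.2%) and lower in 4 (12.1%) of 33 tested genes, beside 18.8% and 20.3% of all genes tested. Dennd2d, of a subfamily that acts on Rab9, rose from 3.98 ± 0.912 to 9.48 ± 1.44 FPKM (log2 change 1.08 ± 0.18). Dennd1b, which acts on Rab35, rose from 21.8 ± 3.73 to 44.5 ± 4.65 FPKM (log2 change 1.00 ± 0.15), and Dennd6a, which acts on Rab14, rose from 25.3 ± 3.52 to 40.01 ± 5.24 FPKM. Rab14 itself fell and Rab35 was not called. Dennd4a, which acts on Rab10, fell from 22.3 ± 1.89 to 14.6 ± 0.844 FPKM, and these 4 calls held under all alternatives in which the genes were tested. Rab3ip, which acts on Rab8, fell from 7.22 ± 1.56 to 4.62 ± 0.414 FPKM, and Sh3bp5, which acts on Rab11, fell from 30.5 ± 6.33 to 20.99 ± 0.699 FPKM. The calls of Rab3ip and Sh3bp5 each ended in every leave-out other than that of 3-day replicate 2 (largest adjusted p 0.115 and 0.108) and with centring on the median gene, that of Rab3ip also with quantile normalization (adjusted p = 0.1899) and that of Sh3bp5 with a constant prior variance.

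GTPase activating proteins, which switch Rab proteins off, were higher in 10 of 27 tested genes (37.0%), beside 18.8% of all genes tested and 31.6% of those at 10 FPKM or more. The 1 gene that was lower was 3.70% of the 27, beside 20.3% and 12.4% in the same backgrounds. It was Sgsm1, named after its value was seen (1.305 ± 0.521 FPKM at 3 days and 0.164 ± 0.11999 FPKM at 7 days). Tbc1d12 rose from 13.8 ± 0.689 to 29.3 ± 3.39 FPKM (log2 change 1.03 ± 0.12, adjusted p = 0.00103). Tbc1d5, which acts on Rab7 together with retromer, rose from 27.8 ± 1.59 to 48.5 ± 3.76 FPKM, and Tbc1d8 rose from 5.47 ± 0.707 to 9.88 ± 0.625 FPKM. These 3 calls held under all 16 alternatives. The median log2 change of the 27 genes was 0.26.

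Among effectors of late endosomes and lysosomes, with the HOPS tether and retromer, 6 of 13 tested genes were higher (46.2%) and 1 was lower (7.69%), beside 18.8% and 20.3% of all genes tested, or 31.6% and 12.4% of those at 10 FPKM or more. Osbpl1a, a Rab7 effector that senses cholesterol, rose from 36.8 ± 2.55 to 56.1 ± 4.21 FPKM, and Vps39, a subunit of HOPS, rose from 8.51 ± 1.73 to 14.3 ± 3.102 FPKM. Of these 6, the other 4 were retromer genes, which were not a list of their own and of which the last 3 were named after their values were seen: Vps26b from 12.5 ± 0.731 to 17.9 ± 0.317 FPKM, Vps35 from 149 ± 7.89 to 199 ± 14.3 FPKM, Vps26a from 97.5 ± 9.23 to 129 ± 6.85 FPKM and Vps29 from 123 ± 15.5 to 163 ± 19.6 FPKM. Osbpl1a and Vps26b held their calls under all 16 alternatives. Vps35, Vps26a and Vps29 lost theirs with quantile normalization (adjusted p up to 0.289) and without 7-day replicate 1 or 7-day replicate 2 (up to 0.155), Vps29 also without any one of 3-day replicates 1 and 3 and 7-day replicate 3, with a constant prior variance and with all rows tested, and Vps39 in every leave-out other than that of 7-day replicate 3 (up to 0.0974). The gene that fell was Wdr91, named after its value was seen (3.05 ± 0.282 FPKM at 3 days and 1.42 ± 0.508 FPKM at 7 days). Of 10 tested early endosome effectors, 2 were higher (20%) and 0 were lower, beside 18.8% and 20.3% of all genes tested. Rabep1, which joins Rab4 and Rab5, rose from 23.1 ± 3.42 to 35.4 ± 4.21 FPKM, and Pik3r4, of the kinase complex that makes phosphatidylinositol 3-phosphate, rose from 7.95 ± 0.149 to 10.8 ± 0.938 FPKM. Both lost their calls with 1 library left out: Rabep1 without 7-day replicates 1 or 3 or with quantile normalization (adjusted p up to 0.0545), Pik3r4 in every leave-out other than that of 7-day replicate 3 (up to 0.106). The replicate block ended the calls of Pik3r4 and Vps39 too.

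Recycling endosome effectors were higher in 3 (21.4%) and lower in 5 (35.7%) of 14 tested genes, beside 18.8% and 20.3% of all genes tested. Ehd1, which pinches recycling tubules, fell from 34.5 ± 1.56 to 14.6 ± 1.01 FPKM (log2 change -1.19 ± 0.10, adjusted p = 4.00e-04). Mical1, a Rab effector that oxidises actin, rose from 9.89 ± 2.67 to 22.5 ± 4.41 FPKM, and Rilpl2, which binds Rab8 and Rab10 phosphorylated by Lrrk2, rose from 50.3 ± 7.98 to 86.03 ± 1.105 FPKM. These 3 calls held under all 16 alternatives. Rilpl1 rose from 10.3 ± 0.454 to 14.3 ± 1.57 FPKM, losing its call without any one of 3-day replicates 2 and 3 and 7-day replicates 1 and 3 (adjusted p up to 0.0882), and Rab11fip3, a Rab11 effector, fell from 8.64 ± 1.18 to 5.28 ± 1.04 FPKM, losing its call without any one of 3-day replicates 1 and 2 and 7-day replicates 2 and 3 or with quantile normalization (up to 0.0799). Of 5 tested Golgi effectors, 2 were lower (40%, beside 20.3% of all genes tested): Uso1, the Rab1 effector p115, from 41.3 ± 7.72 to 25.2 ± 0.872 FPKM, and Bicd1, which couples Rab6 to dynein, from 15.6 ± 2.82 to 4.42 ± 0.529 FPKM.

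Effectors of secretory granules were lower in 4 (44.4%) and higher in 1 (11.1%) of 9 tested genes, beside 20.3% and 18.8% of all genes tested. Rph3a, the Rab3 effector rabphilin of synaptic vesicles, measured 14.97, 23.7 and 13.1 FPKM at 3 days and 4.54, 3.62 and 4.72 FPKM at 7 days. It was highest in 3-day replicate 2, as Rab3a was, and fell 4.02-fold. Sytl2, which binds Rab27, fell from 20.1 ± 5.68 to 6.51 ± 1.302 FPKM, also with 3-day replicate 2 highest. The neuron markers were highest in that library too, and their part in these falls was not tested. The gene that was higher, Sytl3, was named after its value was seen and had means of 0.123 ± 0.0448 FPKM at 3 days and 0.996 ± 0.109 FPKM at 7 days. Lrrk2, the kinase of several Rab proteins, was not called, with means of 1.4001 ± 0.465 FPKM at 3 days and 0.9395 ± 0.211 FPKM at 7 days.

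The authors' own test called many of the same Rab genes. In the authors' deposited table, a q-value of 0.05 or less was given to 13 of the 16 Rab genes called higher here and to 7 of the 9 called lower, with the same direction. Among all rows, called here or not, 17.1% had such a q-value and were higher, and 20.9% were lower. The share among all genes called here was not computed, and both tests use the same libraries, so this overlap is not particular to Rab genes as far as is known. Rab10, Rab1b, Rab2b, Rab15 and Rab36 were called here alone. Rab22a, Rab33a, Rab3a, Rab3b and Rab40b had such a q-value in the authors' deposited table and were not called here. The authors' filtered table leaves out 11 of the 50 genes, among them Rab6a and the called genes Rab39b, Rab3c and Rab9b.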

How the data were processed

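Per the labels' protocols, ScriptSeq v2 libraries were prepared from RNA of RiboTag precipitates. The submitters' processing notes name the build mm10 and the tools Cuffdiff 2.2.1, Cufflinks 2.2 and TopHat2 2.0.12, without their roles. The 2 tables deposited by the authors, one of them filtered, hold per the file headers an FPKM per gene and library, the authors' mean FPKM per time, a log2 fold change, a test statistic (a score of the authors' own test) and a p-value and q-value. How libraries were scaled to each other, how strand was treated and how the table was filtered are not given in the sources used here. Loci are mm10 positions as the authors give them.

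Of 13960 rows, 918 were set aside, some for several reasons: 838 in which the libraries' mean differed from the mean the authors give by more than 1%, 45 whose status was not OK, 14 with a 0 beside 100 FPKM or more, and 32 of repeated symbols. The other 13042 were fitted as log2(FPKM + 1) with limma 3.58.1 (R 4.3.3, mean-dependent prior variance), two-sided, with Benjamini-Hochberg adjustment over all of them. Exact permutation tests used scipy 1.17.1 (Python 3.11.15, numpy 2.4.6, pandas 2.3.3, matplotlib 3.10.9 for figures). The fit was tested on simulated data. Exon overlaps and gene spans come from GENCODE M21. Overlaps were sought within the annotated gene and not over the deposited locus. Deposited and annotated spans also differed for other Rab genes, among them Rab13 (5246 and 12691 bases), Rab18 (27053 and 60525) and Rab37 (8184 and 70806).

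The members, lists and tests were chosen with earlier results of these data known. Values in every library are given for called Rab genes with a larger mean of 10 FPKM or more, uncalled ones with a mean of 50 or more, and same-number pairs called in opposite directions; Rab30, Rab3a and Rab2a were added after their values were seen. Of each list of regulators, up to 3 called genes per direction with a larger mean of 5 FPKM or more are named, and others where said. Protein sequences are not shown here. There were 16 alternatives.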

Additional observations from a re-analysis of the deposited data

How the results depend on the processing

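Of the 25 called Rab genes, 12 kept direction and call under every alternative in which they were tested: Rab5a, Rab5b, Rab8a, Rab8b, Rab9, Rab12, Rab13, Rab19, Rab31, Rab6b, Rab23 and Rab36. The other 13 lost their call under at least 1, and none of the 25 changed sign. Of the 24 uncalled Rab genes, 6 gained a call under at least 1 alternative. The count of higher Rab genes ranged from 10 to 16 and that of lower ones from 4 to 8 when 1 library was left out; lower ones numbered 5 with quantile normalization and 4 among genes with a mean of 5 FPKM or more. Regulators and effectors called higher ranged from 13 to 30, and lower from 10 to 16, when 1 library was left out; lower ones numbered 10 among genes with a mean of 5 FPKM or more, and 6 with the authors' filtered table. These counts of regulators under alternatives were added after the data were seen. The share of all genes called under each alternative is not given. Shifts in these counts are therefore not known to be particular to Rab genes or their regulators. With the authors' filtered table, which leaves out Rab6a and adds Rab2a, the 7-day minus 3-day share of the ER and Golgi group was -2.34 percentage points and that of the early endosome group 2.77. Signs turned only for uncalled genes. With quantile normalization the log2 change was -0.096 for Rab20, 0.28 for Rab27b, -0.0086 for Rab35, 0.086 for Rab37 and -0.061 for Rab5c, and with centring on the median gene it was 0.049 for Rab11a and 0.018 for Rab21. With 1 library left out, log2 changes ranged from -0.115 to 0.018 for Rab11a (above 0 without 3-day replicate 2), from -0.176 to 0.0063 for Rab11b (above 0 without 7-day replicate 1), from -0.078 to 0.137 for Rab20 (below 0 without 3-day replicate 2 or 7-day replicate 2), from -0.156 to 0.058 for Rab21 (above 0 without 3-day replicate 1), from -0.0067 to 0.165 for Rab35 (below 0 without 3-day replicate 2) and from -0.349 to 0.016 for Rab40c (above 0 without 3-day replicate 1). The cause was not tested, beyond the fewer genes or libraries that some alternatives use by construction. Rab40b has no value without 3-day replicate 3, since all other libraries list 0.

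The replicate numbers are shared by the times in the labels, but samples with the same number did not deviate together: the correlations over 11073 genes were 0.115, 0.0096 and 0.0105 for replicates 1, 2 and 3, and only replicate 1 correlated best with its own number. With the replicate number as a block, 16 Rab genes were higher and 8 lower, and regulators 30 and 18; Rab15 lost its call. The number of reads is unknown, so genes near 0 FPKM, such as Rab27b, Rab33a and Rab3b, carry an error that cannot be given, and 3 libraries per time limit all tests.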
